A study of Homo sapiens with 4 samples.

Results

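In LNCaP prostate cancer cells transfected with miR-31, the messenger RNA of ID2 was 3.12-fold and 3.25-fold higher at its 2 probes than in cells given the control microRNA miR-NC, and that of its relative ID1 rose 2.41-fold. The genes described are the ID family (ID1 to ID4) with signalling components of the bone morphogenetic protein (BMP) pathway, namely SMAD1, SMAD5, SMAD6, SMAD7, BMPR1A and BMPR2. Members were all probes of the deposited bead-array table that the platform annotation assigned to one of these symbols alone. This gave 16 of 47231 probes, for 9 of the 10 genes, against 20046 genes named on the array. No probe carried BMPR1A alone in the annotation used, so BMPR1A was not analysed here. ID2 was selected on its measured rise in this same contrast, so its values are a description with no test. The other members were listed for their roles, with earlier results of these data known.

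LNCaP is an androgen-responsive line derived from a metastasis of a human prostate cancer. The cells were grown with 10% fetal bovine serum and transfected with 50 nM of miR-31 (the group miR-31) or of miR-NC (the group miR-NC), and RNA was taken after 48 h. There were 2 Illumina bead arrays per group, numbered as repeats with no word on whether they came from separate cultures, so every p-value measures only the spread between these arrays, which may be technical. All cells of both groups were of 1 line, and an array reads the pooled RNA of a culture, so a change in all cells and a change in some of them cannot be told apart.

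BMP ligands bind paired serine/threonine kinase receptors at the cell surface, BMPR2 being a type II and BMPR1A a type I receptor. The active receptors phosphorylate SMAD1 and SMAD5, which join SMAD4, enter the nucleus and raise the transcription of genes that include ID1, ID2, ID3, SMAD6 and SMAD7. SMAD6 and SMAD7 are inhibitory SMADs that feed back on the receptors. ID proteins have a helix-loop-helix domain but no DNA-binding region: they pair with E proteins such as TCF3, TCF4 and TCF12 and keep them off DNA, and they are known for holding cells, epithelial and cancer cells among them, in an undifferentiated state.

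The labels name the transfected agent only as miR-31, without an arm. For reference, the mature hsa-miR-31-5p in RefSeq (GRCh38.p14, chr9:21512158-21512178, minus strand) is given with its seed, bases 2 to 8, in capitals.
hsa-miR-31-5p: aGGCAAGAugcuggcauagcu

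The promoters of ID1, ID2, ID3 and SMAD6 are shown because these are the detected members best known as direct SMAD targets that had the largest differences or, for ID3, belong to the same family. Each run is the 250 bases before the RefSeq transcription start on the gene's own strand (GRCh38.p14), and capitals mark AGAC or its reverse complement GTCT, the core letters that SMAD proteins bind. The windows are chr20:31605039-31605288 (plus strand) for ID1, chr2:8681806-8682055 (plus) for ID2, chr1:23559502-23559751 (minus) for ID3 and chr15:66701986-66702235 (plus) for SMAD6.
ID1: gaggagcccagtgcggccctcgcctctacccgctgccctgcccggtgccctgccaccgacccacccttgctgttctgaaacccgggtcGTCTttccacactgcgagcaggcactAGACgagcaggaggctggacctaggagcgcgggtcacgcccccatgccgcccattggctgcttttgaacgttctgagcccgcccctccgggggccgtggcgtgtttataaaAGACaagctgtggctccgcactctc
ID2: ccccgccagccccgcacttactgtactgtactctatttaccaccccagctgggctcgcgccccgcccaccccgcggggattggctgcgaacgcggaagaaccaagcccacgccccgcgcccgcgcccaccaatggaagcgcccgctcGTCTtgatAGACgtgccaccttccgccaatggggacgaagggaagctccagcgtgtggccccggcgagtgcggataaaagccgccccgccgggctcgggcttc
ID3: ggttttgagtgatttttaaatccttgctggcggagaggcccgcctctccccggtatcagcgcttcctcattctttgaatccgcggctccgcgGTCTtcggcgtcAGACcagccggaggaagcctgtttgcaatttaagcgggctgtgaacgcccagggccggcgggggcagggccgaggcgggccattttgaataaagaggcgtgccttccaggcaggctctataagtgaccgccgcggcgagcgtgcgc
SMAD6: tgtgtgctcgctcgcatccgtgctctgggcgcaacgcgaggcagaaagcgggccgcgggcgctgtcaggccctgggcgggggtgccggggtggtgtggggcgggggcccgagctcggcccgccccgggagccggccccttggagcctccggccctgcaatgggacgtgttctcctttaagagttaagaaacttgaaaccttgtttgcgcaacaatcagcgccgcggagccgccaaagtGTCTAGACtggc

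The ID2 window held 2 AGAC matches, a GTCT and an AGAC 4 bases apart. The ID1 window held 3 and the ID3 window 2, with 8 bases between them. Such matches are common: 77.5% of 35116 RefSeq promoter windows of this length held at least 1, and 45.6% held at least 2. In the SMAD6 window the 2 matches abut and form GTCTAGAC, a palindrome that reads the same on both strands and that was present in 64 (0.182%) of all windows; this motif was searched after the SMAD6 window had been read. Among the 16 windows of the 10 genes (SMAD1 and SMAD7 have several starts), 13 held AGAC and 1 held GTCTAGAC. Searched on both strands as well, GGCGCC (a GC-rich SMAD motif) was in none of the windows printed, against 16.4% of all windows. CANNTG, the E-box bound by E proteins, matched once in the ID2 window and was in 61.8% of all windows. CCAAT matched 3 times for ID2, once for ID1 and not for ID3 (32.0% of all windows), and TATAAA matched in the ID1 window, at 2 overlapping places on opposite strands, but not in those of ID2 and ID3 (10.7%). A match here describes letters and is no evidence of binding. Bases outside these 250-base windows were not searched, so an absent match does not speak for the rest of the promoter.

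Between 34.6% and 40.7% of probes were detected per array, and median signals before normalization ran from 74.6 to 92.5. After normalization the arrays of a group correlated at 0.979 (miR-NC) and 0.983 (miR-31) by Pearson's r over probes, which are no independent replicates. Of 18354 probes tested in limma, 6.17% passed an adjusted p of 0.05, 385 as higher in miR-31 and 747 as lower. With the arrays aligned on their medians the split was 61 higher and 45 lower, and 0 probes passed without miR-31 replicate 1 or without miR-31 replicate 2 (3022 and 2759 at an unadjusted p under 0.05). Of 7 luminal markers with a probe, 6 were detected on all 4 arrays, among them KLK3, FOLH1 and TMPRSS2, while KRT18 was detected on 1. The basal markers KRT5 and KRT14 were detected on no array. Among stromal, leukocyte and endothelial markers only VWF was detected on all 4 arrays. Mature microRNAs are not read by these arrays, so the transfection itself was not checked here.

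**Figure D1:**
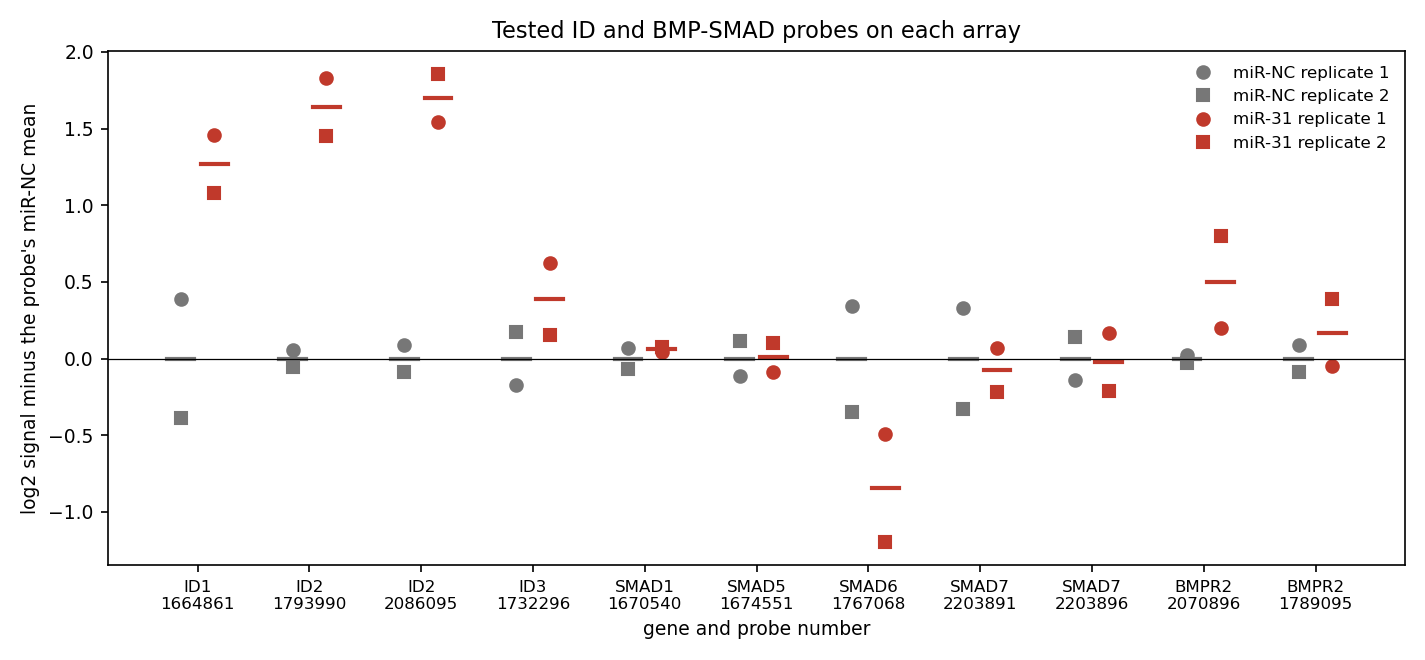
Normalized log2 signal of the 11 tested member probes on each array, as the difference from that probe's mean over the miR-NC arrays (y axis, log2 units), by gene and probe number (x axis). Circles are replicate 1, squares replicate 2, grey miR-NC, red miR-31, and short lines are group means. The red points of ID1 and of both ID2 probes lie above all grey points of the same probe, those of SMAD6 lie below them, and those of SMAD1, SMAD5 and SMAD7 lie among or beside them.

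Of the 16 member probes, 11 passed the filter, which asked for a detection p under 0.05 on 2 or more arrays, irrespective of group. They stood for 8 genes. The 5 that did not pass were the only ID4 probe, 1 of 2 ID1 probes, 1 of 2 SMAD1 probes and 2 of 3 SMAD5 probes. Apart from ID2, 9 probes of 7 genes were tested, and 1 of them passed the threshold as higher, 0 as lower and 8 not at all. Over all tested probes the share was 6.17%, with 2.10% higher and 4.07% lower. The groups did not overlap at 3 of the 9 probes, 2 higher and 1 lower in miR-31, against 51.5% of all tested probes (24.0% higher and 27.6% lower). The median log2 difference of the 9 was 0.06, beside −0.01 for all tested probes.

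ID2, the helix-loop-helix protein that also binds the retinoblastoma protein, was measured by a pair of probes that both stood far above background on all arrays. At its brighter probe (ILMN_1793990) the deposited signal before normalization was 318.2 and 236.2 on miR-NC replicates 1 and 2, and 572.5 and 609.7 on miR-31 replicates 1 and 2. After normalization the log2 values were 7.68 and 7.57 with miR-NC against 9.45 and 9.08 with miR-31. Both miR-31 arrays were above both miR-NC arrays before and after normalization. The group means were 7.63 ± 0.08 and 9.27 ± 0.27 (SD, n = 2), a log2 difference of 1.64 ± 0.21 (SE), or 3.12-fold. The arrays of a group were 0.38 apart in miR-31 and 0.11 apart in miR-NC.

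The second ID2 probe (ILMN_2086095) gave log2 values of 7.23 and 7.06 in miR-NC and of 8.69 and 9.0 in miR-31. Here replicate 2 was the higher of the miR-31 arrays, where at the first probe it was the lower. The means were 7.15 ± 0.12 and 8.85 ± 0.22 (SD, n = 2), a log2 difference of 1.70 ± 0.22 (SE), or 3.25-fold. Both ID2 probes were among the larger differences on the array, at ranks 84 and 71 of 18354 counted from the most positive. Since ID2 was picked for this rise, a high rank was given in advance and is no support for it. Under the alternatives run, the difference stayed between 1.40 and 1.83 at the brighter probe and between 1.38 and 1.86 at the other, the lowest values being those with no background correction.

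The genes whose 4 normalized values, centred on the gene's mean, lay nearest to those of ID2 were BMERB1, CXCL10, IFI6, SH3PXD2A and ISG15, with Euclidean distances from 0.05 (BMERB1) to 0.23 (ISG15) on the log2 scale. Their log2 differences between groups ran from 1.45 for IFI6 to 1.76 for SH3PXD2A. On the miR-NC arrays, CXCL10 (5.14 and 5.26) and SH3PXD2A (5.24 and 4.93) lay below the lowest detected signal (5.45 and 5.46). CXCL10 and SH3PXD2A thus passed the filter only through the miR-31 arrays, where they were high, and the size of their differences is not well measured. With 4 arrays in 2 groups this likeness says little more than that their differences were of like size.

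ID1, a direct BMP target known for its part in endothelial and epithelial growth, rose in miR-31 cells. Its detected probe (ILMN_1664861) had log2 values of 7.40 and 6.63 in miR-NC and of 8.47 and 8.09 in miR-31. Both miR-31 arrays were above both miR-NC arrays, and the miR-NC arrays themselves were 0.78 apart. The means were 7.02 ± 0.55 and 8.28 ± 0.27 (SD, n = 2), a log2 difference of 1.27 ± 0.29 (SE; limma adjusted p = 0.0392). This 2.41-fold rise was the 1 call among the 9 tested probes. Without miR-NC replicate 2, the array lowest for ID1, the difference was 0.88, and without miR-NC replicate 1 it was 1.66. It was 1.08 without miR-31 replicate 1 and 1.46 without miR-31 replicate 2. These fits leave 1 array in a group, so only the size of the difference is read from them. The ID1 rise missed the threshold with the authors' normalized values (1.32, limma adjusted p = 0.0623), without a variance trend (adjusted p = 0.10) and with median alignment (1.16, adjusted p = 0.752).

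The other ID1 probe (ILMN_1665832) was not well above background on any array, with detection p from 0.191 to 0.403. Its log2 values lay between 4.95 and 5.12, below the lowest signal of any detected probe on each array (5.36 to 5.60), and it gave no second reading of ID1.

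ID3, the family member often induced together with ID1, had log2 values of 8.40 and 8.74 in miR-NC and of 9.19 and 8.72 in miR-31. The groups overlapped, since miR-31 replicate 2 lay just under miR-NC replicate 2. The log2 difference was 0.39 ± 0.22 (SE), with a 95% interval for this probe alone of −0.12 to 0.90, and did not pass (limma adjusted p = 0.350). ID4, which is expressed mainly in the nervous system and in some epithelial progenitors, was not well above background on any array, with detection p of 0.826 or more. No direction could be given for ID4.

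SMAD6, the inhibitory SMAD that acts chiefly on BMP receptors, had the lowest difference among the members. The miR-NC arrays read 7.88 and 7.19 and the miR-31 arrays 7.04 and 6.34. Both miR-31 arrays were below both miR-NC arrays, though miR-31 replicate 1 was only slightly under miR-NC replicate 2, and each group's arrays were about 0.70 apart. The log2 difference was −0.84 ± 0.33 (SE), 1.79-fold lower, and did not pass (limma adjusted p = 0.171). It was −1.19 without miR-NC replicate 2, where it passed (adjusted p = 0.0284), and −0.50 without miR-NC replicate 1 (adjusted p = 0.588). Without miR-31 replicate 1 it was −1.19 (adjusted p = 0.211) and without miR-31 replicate 2 it was −0.49 (adjusted p = 0.550).

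SMAD7, the inhibitory SMAD of both BMP and TGF-beta signalling, showed no difference that could be told from 0 at either probe. The brighter probe (ILMN_2203891) read 6.94 and 6.28 with miR-NC against 6.68 and 6.39 with miR-31, so both miR-31 arrays fell between the miR-NC arrays. Its log2 difference was −0.08 ± 0.30 (SE; limma adjusted p = 0.920), with a 95% interval of −0.75 to 0.60. The other (ILMN_2203896) read 5.76 and 6.05 with miR-NC against 6.07 and 5.69 with miR-31, a difference of −0.02 ± 0.29 (SE; limma adjusted p = 0.980). SMAD6 and SMAD7 thus had different values, and whether their changes differ was not tested.

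SMAD5, a receptor-activated SMAD, was measured well at 1 of 3 probes (ILMN_1674551), with log2 values of 9.92 and 10.14 in miR-NC and of 9.94 and 10.13 in miR-31. The groups overlapped fully, each having a lower replicate 1 and a higher replicate 2. The log2 difference was 0.01 ± 0.17 (SE; limma adjusted p = 0.986), and the 95% interval of −0.36 to 0.38 is the narrowest among the tested members. The other SMAD5 probes were detected on 1 array and on none. SMAD1, its close relative, read 5.48 and 5.34 with miR-NC against 5.45 and 5.48 with miR-31 at the probe that passed the filter. This probe was detected on only 1 array of each group, and its difference of 0.06 ± 0.27 (SE; limma adjusted p = 0.932) has a 95% interval of −0.56 to 0.68 at a signal near background.

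BMPR2, the type II receptor, was measured by 2 probes that were detected on all arrays. The brighter (ILMN_2070896) read 8.37 and 8.32 with miR-NC against 8.55 and 9.15 with miR-31. Both miR-31 arrays were above the miR-NC arrays, by little on replicate 1 and by more on replicate 2. The log2 difference was 0.50 ± 0.23 (SE) and did not pass (limma adjusted p = 0.241). The other probe (ILMN_1789095) read 8.52 and 8.34 with miR-NC against 8.38 and 8.82 with miR-31, so the groups overlapped, with a difference of 0.17 ± 0.22 (SE; limma adjusted p = 0.720). At both probes miR-31 replicate 2 was the highest array. Without it the differences were 0.20 and −0.05.

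**Figure D2:**
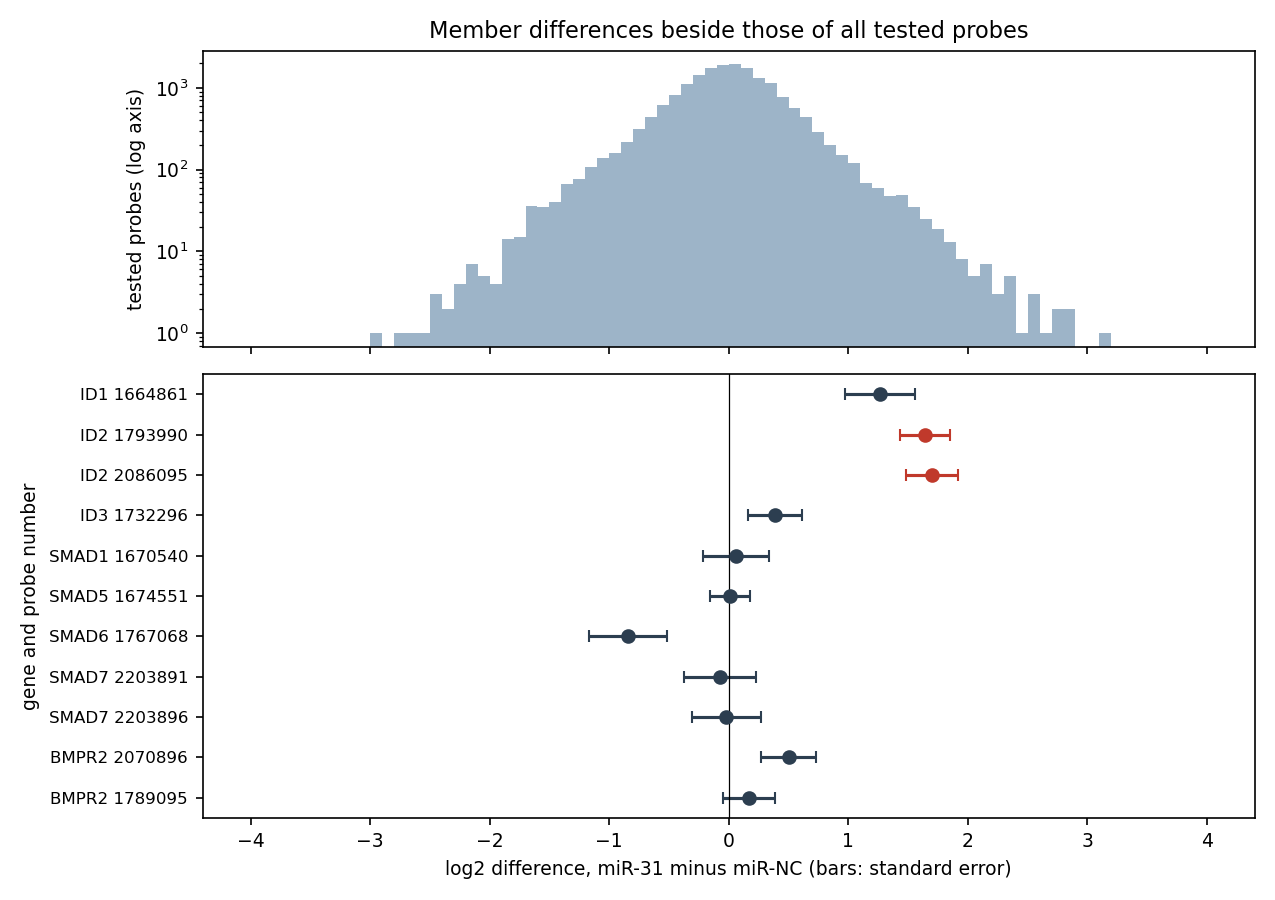
Upper panel, the number of tested probes (log axis) by log2 difference, miR-31 minus miR-NC, for all 18354 tested probes in bins on the x axis. Lower panel, the same difference for each tested member probe with its standard error, ID2 in red; ID2 stands at 1.64 and 1.70 and ID1 at 1.27 on the right shoulder of the distribution, SMAD6 at −0.84 on the left, and the other members between −0.08 and 0.50.

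The rest of the BMP and TGF-beta pathway was read through 6 lists of 72 genes, of which 68 had a probe and 33 were tested, each by its brightest tested probe. None of the 33 passed in limma in either direction, against 7.66% of all 10754 tested genes (2.43% higher and 5.24% lower). An unadjusted limma p under 0.05 was found for 4 of the 33, and for 4063 of the 18354 tested probes. Positive differences were found for 13 and negative ones for 20, and the median log2 difference was −0.06, beside −0.02 for all tested genes.

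Most ligands of the family were not measurable in these cells. Of 17 ligand genes with a probe, 14 were not tested, among them BMP2, BMP4 and BMP7, the classical bone morphogenetic proteins, and TGFB1, all with their brightest probe detected on no array. The 3 tested were GDF11, a regulator of axial patterning (−0.65 ± 0.30, SE; limma adjusted p = 0.236), INHBB, an activin and inhibin subunit (−0.55 ± 0.32, adjusted p = 0.349), and the stress-induced cytokine GDF15, at −0.03 ± 0.13. No ligand passed the threshold.

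Of 14 other receptor and co-receptor genes, 9 were tested and their median log2 difference was −0.29. The smallest p belonged to AMHR2, the receptor of anti-Müllerian hormone, which signals through the BMP SMADs. AMHR2 read 8.60 and 8.19 with miR-NC against 7.68 and 7.15 with miR-31, with no overlap, and its log2 difference of −0.98 ± 0.26 (SE) lay just outside the threshold (limma adjusted p = 0.0575). It passed with the stricter filter on dim probes (limma adjusted p = 0.0416) and when each gene's probes were averaged (adjusted p = 0.0273). AMHR2 has 1 probe, so nothing was averaged for it, and its difference stayed at −0.98 in both settings. The difference was −1.19 without miR-NC replicate 2 and −0.78 without miR-NC replicate 1. It was −1.25 without miR-31 replicate 1 and −0.72 without miR-31 replicate 2. AMHR2 missed the threshold with median alignment (limma adjusted p = 0.884), without a variance trend (0.121), with no filter (0.0904) and with the authors' values (0.0826). It missed more narrowly with cyclic loess (0.0571), offset 50 (0.0548) and no background correction (0.0521). With the replicate number as a block it passed, as described under the processing below. RGMA, a BMP co-receptor, had the next smallest p, at −0.51 ± 0.29 (adjusted p = 0.344), and was not detected on miR-31 replicate 1 (detection p 0.070). BMPR1B, the type I receptor that resembles BMPR1A, stood at −0.26 ± 0.21 (adjusted p = 0.526) at its brighter probe and at −0.70 ± 0.28 (adjusted p = 0.184) at the other, where the groups did not overlap. ACVR1, another type I receptor for BMPs, stood at 0.20 ± 0.17 (adjusted p = 0.568); BMPR1B and ACVR1 were singled out after their values were seen, for their likeness to the unmeasured BMPR1A.

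The other SMADs were all tested and none passed. SMAD3, which carries TGF-beta signals, stood at −0.38 ± 0.26 (SE; limma adjusted p = 0.438), and SMAD4, the shared partner, at 0.18 ± 0.15 (adjusted p = 0.552). Of 21 inhibitors, 11 were tested, with 8 positive and 3 negative differences and a median of 0.03. BAMBI, a decoy receptor that is itself induced by BMP and TGF-beta, read 11.28 and 11.39 with miR-NC against 11.79 and 11.70 with miR-31. The groups did not overlap, and the difference of 0.41 ± 0.13 (SE) did not pass (limma adjusted p = 0.112). FSTL1, a secreted glycoprotein that binds BMPs, stood at −0.78 ± 0.30 (adjusted p = 0.172). It was not detected on miR-31 replicate 1 (detection p 0.2), so the size of its difference is not well measured. FSTL3 stood the other way, at 0.85 ± 0.34 (limma adjusted p = 0.182), with its miR-NC arrays 1.01 apart. NOG, CHRD, GREM1 and FST, the secreted BMP and activin antagonists noggin, chordin, gremlin and follistatin, did not pass the filter.

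Of the E proteins that ID proteins bind, only TCF12 was tested, and it stood at −0.19 ± 0.20 (SE; limma adjusted p = 0.641) at its brighter probe and at −0.48 ± 0.23 (adjusted p = 0.260) at the other. The groups did not overlap at either TCF12 probe, which was also so at 51.5% of all tested probes (27.6% lower in miR-31). TCF3 was detected on 1 array and TCF4 on none. Other genes known to respond to SMADs did not pass either: 5 of 11 were tested, with 1 positive and 4 negative differences and a median of −0.27 by brightest probe. CCN2 and PMEPA1 were negative at that probe (−0.27 and −0.12) but positive at their other tested probe. The other CCN2 probe gave 0.22 ± 0.28 (SE, limma adjusted p = 0.711) and the other PMEPA1 probe 0.15 ± 0.21 (adjusted p = 0.739). TGFBI, an extracellular matrix protein induced by TGF-beta, stood at −0.45 ± 0.31 (adjusted p = 0.452) and the repressor HES1 at −0.37 ± 0.29 (adjusted p = 0.508). TGFBI was detected on both miR-NC arrays and on neither miR-31 array (detection p 0.078 and 0.061). It thus entered the test only through the group where it read higher, and its difference is no independent sign of a fall.

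**Figure D3:**
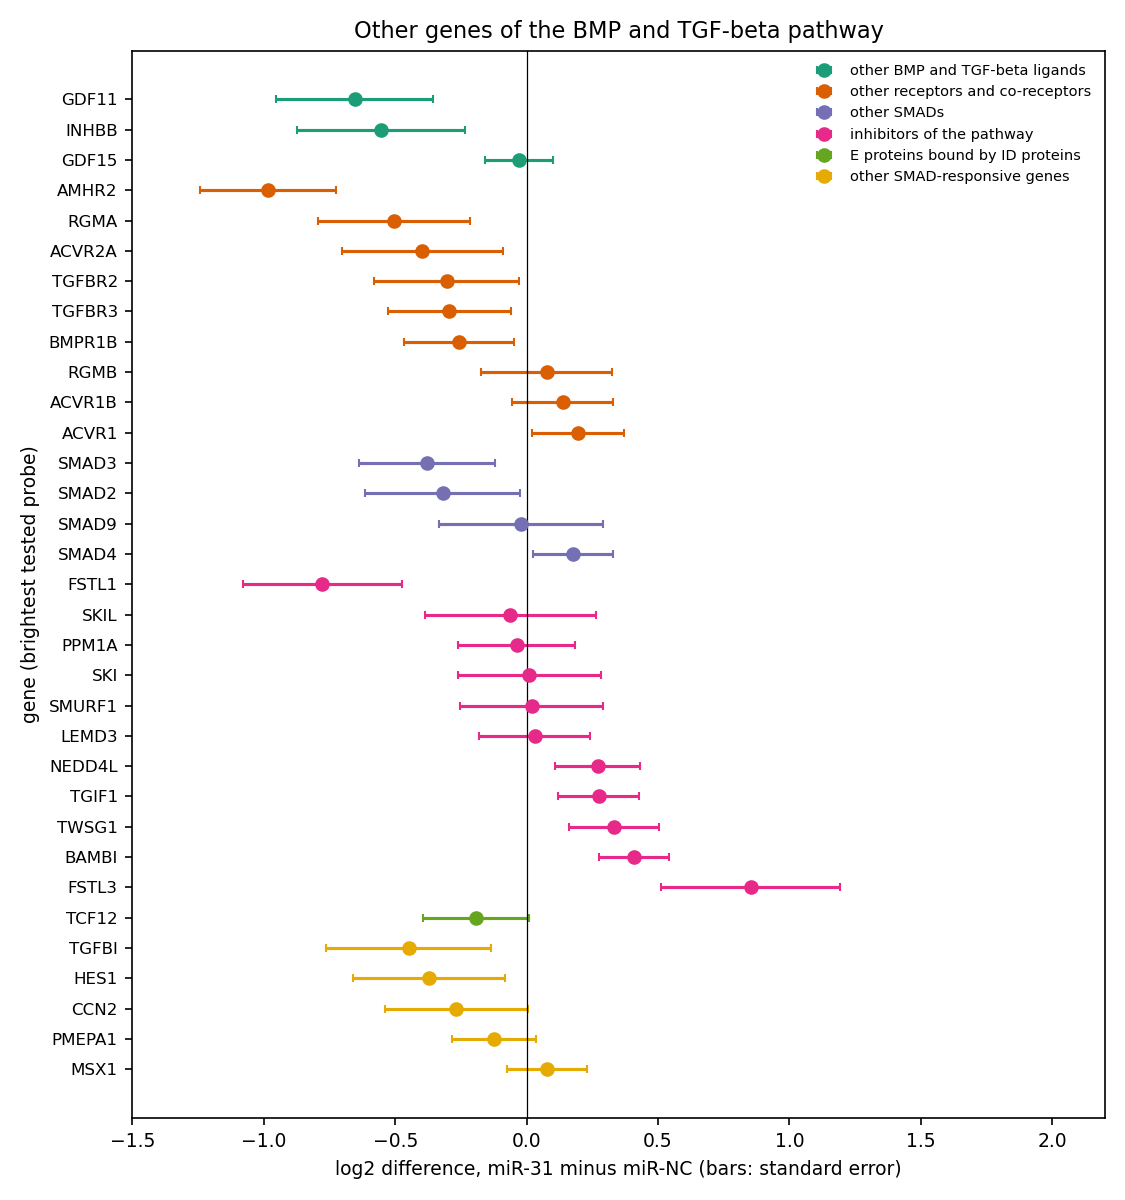
Log2 difference, miR-31 minus miR-NC, of the 33 tested pathway genes outside the members (x axis, points with standard errors), by gene and coloured by list (y axis). AMHR2 at −0.98 and FSTL3 at 0.85 are the extremes, and none of the 33 passed the threshold.

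The size and direction of the member differences under the alternatives are shown in the plot of member differences by setting. ID1, ID2, ID3 and the brighter BMPR2 probe were positive and SMAD6 was negative under all alternatives run, while SMAD1, SMAD5, SMAD7 and the dimmer BMPR2 probe took both signs.

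**Figure D4:**
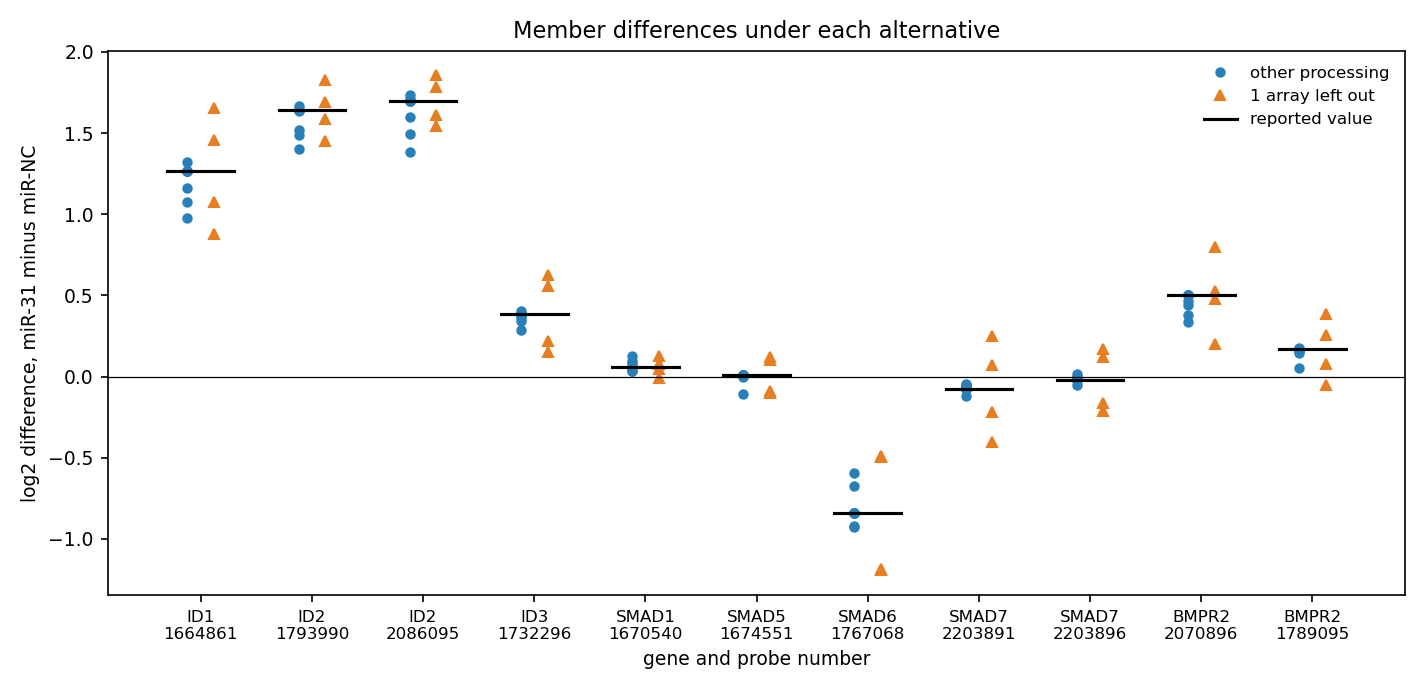
Log2 difference, miR-31 minus miR-NC, of each tested member probe (x axis, gene and probe number) under other processing (blue circles), with 1 array left out (orange triangles) and as reported (black lines). The ID2 points lie between 1.38 and 1.86, those of ID1 between 0.88 and 1.66, and those of SMAD6 between −1.19 and −0.49.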

How the data were processed

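Messenger RNA was measured on 4 Illumina bead arrays. Per the file headers, the deposited table holds non-normalized signal intensity for 47231 probes; the submitters' processing notes name BeadStudio, with its version and settings not given in the sources used here. Per the file headers a detection p-value stands beside each intensity, but that score has bright probes at 1 and dim ones at 0, so 1 minus the score was used. A second deposited table holds the authors' normalized intensity, linear and with the same median of 14.3 on all arrays; its method is not stated, and it served as an alternative.

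The processing used limma 3.58.1 under R 4.3.3: neqc (background from detection p, offset 16, quantile normalization, log2), then probes with detection p under 0.05 on at least 2 arrays, lmFit and eBayes with an intensity trend, two-sided, with Benjamini-Hochberg adjustment over all 18354 tested probes at 0.05. With 2 arrays a group the smallest two-sided p of an exact permutation test is 0.333, so calls rest on the spread limma shares across probes (2 residual and 7.19 prior degrees of freedom). The fit was tested on simulated data. Precision is limited by the number of arrays.

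A single gene symbol was given for 30113 probes, several for 8 and none for 17110; 30074 symbols were updated by Entrez identifier. A gene is its brightest tested probe. Members, lists, tests and alternatives were chosen with earlier results of these data known. In each pathway list the genes past the threshold were to be named, otherwise the 2 with the smallest p. Sequences are RefSeq's (GRCh38.p14); promoter windows matched all 10 genes. The 15 alternatives changed background correction, offset, normalization, filter, variance trend, replicate block, arrays, threshold or probe choice. The 21 pairs of prostate tissues in the series' design were not analysed here.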

Additional observations from a re-analysis of the deposited data

How the results depend on the processing

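The number of member probes called higher (1, ID1) was 0 with median alignment, with the authors' values raised to a floor of 16 and without a variance trend, and ranged from 0 to 1 when single arrays were left out. The number called lower (0) was 1, SMAD6, with the replicate number as a block, and ranged from 0 to 1 over left-out arrays. Pathway genes called lower (0) became 1, AMHR2, with the strict filter (detection p under 0.01 on all 4 arrays), the replicate block, a threshold of 0.1 and averaged probes per gene, and ranged from 0 to 1 over left-out arrays; those called higher also ranged from 0 to 1, FSTL3 passing at 1.36 without miR-NC replicate 2 (adjusted p = 0.0117). Of all probes, 385 higher and 747 lower became 61 and 45 with median alignment, 72 and 287 without a variance trend, 1208 and 1328 with the replicate block and 805 and 1228 at a threshold of 0.1. The higher count was 241 with the authors' values and 231 with no filter. Over left-out arrays the higher count ranged from 0 to 1132 and the lower from 0 to 953; a group then holds 1 array that is assumed to vary like the other. The cause of these shifts was not tested.

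Signs turned only at probes whose reported difference lay between −0.08 and 0.17. SMAD5 was −0.11 with median alignment, −0.0054 with cyclic loess, and from −0.10 to 0.12 over left-out arrays. SMAD7 ranged from −0.40 to 0.25 over left-out arrays at its brighter probe, and at its other probe from −0.21 to 0.17, with 0.015 under cyclic loess. SMAD1 ranged from −0.010 to 0.13 and the dimmer BMPR2 probe from −0.050 to 0.39. With the replicate block ID1 had an adjusted p of 0.00139 and SMAD6 of 0.0292. The labels do not say that a number marks a shared culture or day; same-numbered arrays' deviations correlated at 0.22 over probes, so the block stands here alone as an alternative. It changed no other call among the members. Of 14 alternatives for ID1, 8 kept its call. The others include the fits without miR-31 replicate 1 or miR-31 replicate 2, where no probe of the array passed, so those losses are not particular to ID1. The 2 arrays per group limit all values, and SMAD1 and ID4 are limited by signal near background.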
